A study of Mus musculus with 36 samples.

Results

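Bhlhe40 and Bhlhe41 encode DEC1 and DEC2, a pair of closely related transcriptional repressors, and were 2 of the 12393 genes measured here in the mouse left ventricle. Both were chosen by gene symbol after 24-h fits of these same arrays were known, in which the course of Bhlhe40 over the day differed between operated groups and that of Bhlhe41 did not. Each gene was read by 1 probe set, 1418025_at for Bhlhe40 and 1421099_at for Bhlhe41, so the gene value and the probe set value were the same. All 24-h values of the pair are therefore a description and carry no test. Tests are given for measures that the choice did not use, the 12-h component and the spread between mice.

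The samples were 36 hearts, 1 array each. Of these, 18 came from mice that had undergone transverse aortic constriction (TAC), which narrows the aorta and puts a pressure load on the left ventricle, and 18 from mice that had a SHAM operation. Hearts were taken 8 weeks after surgery at ZT03, ZT07, ZT11, ZT15, ZT19 and ZT23, as the titles name the times of day, with 3 mice, named as biological replicates, in each of the 12 groups. Strain, sex, age and light schedule are not given in the labels.

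DEC1 and DEC2 are basic helix-loop-helix proteins of the Orange family, to which the HES and HEY repressors also belong. They bind the E-box, the same DNA element through which CLOCK and BMAL1 (encoded by Clock and Arntl) switch on the Period, Cryptochrome and Nr1d1 genes, and they hold that activation down. Both genes carry E-boxes themselves and so answer to the clock that they repress, and Bhlhe40 is also induced by hypoxia, cyclic AMP and serum in cultured cells. In the heart, as in liver and other organs, the clock sets the daily course of many metabolic genes.

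Of the pair, only Bhlhe41 had a promoter window in the source used, so Bhlhe40 was not searched. The promoter of Bhlhe41 is shown because it holds the element that the text refers to. It covers the 250 bases before the annotated start, chr6:145865421-145865670 on the minus strand of GRCm38.p6 (sequence from RefSeq), printed 5′ to 3′ with the E-box CACGTG in capitals. The E-box begins 153 bases before the start.
Bhlhe41: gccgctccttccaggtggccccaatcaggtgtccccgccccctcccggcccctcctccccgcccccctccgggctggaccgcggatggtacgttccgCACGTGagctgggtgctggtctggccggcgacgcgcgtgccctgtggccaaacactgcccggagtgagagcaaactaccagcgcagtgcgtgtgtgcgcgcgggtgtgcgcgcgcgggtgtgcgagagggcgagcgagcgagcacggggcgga

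The same element in windows of 30 bases from 3 clock genes measured on these arrays is set beside it, again with CACGTG in capitals. The windows lie at chr11:69098771-69098800 on the plus strand for Per1, chr10:85185097-85185126 on the minus strand for Cry1 and chr15:81802534-81802563 on the plus strand for Tef, all in GRCm38.p6 and from RefSeq.
Per1: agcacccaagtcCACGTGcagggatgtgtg
Cry1: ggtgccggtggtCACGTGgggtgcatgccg
Tef: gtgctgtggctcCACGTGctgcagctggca

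Both strands were searched over the 250 bases before the start, and CACGTG was found in 6.86% of the 27025 genes with such a window. It was found in 4 of 11 genes of the E-box driven clock list (36.4%) and in 0 of 5 HES and HEY genes. The hypoxia-inducible factor core ACGTG, which lies within CACGTG and so is counted wherever the E-box is, was found in 18.5% of all genes and in 15 of 18 hypoxia-inducible factor targets (83.3%). A match is a description of the letters only, and E-boxes farther from the start were not searched.

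The deposited values are relative. Every probe set had a median of 0 over the 18 TAC arrays and, separately, over the 18 SHAM arrays, so whether either gene was higher or lower after TAC cannot be read from them, and the presence of ventricular or other cell type markers could be followed only as change between arrays. No source used here names the log base, so log2 is an assumption on which every fold rests. Array medians ranged from -0.036 to 0.027. In 3 arrays the mean of T cell and thymocyte or of airway markers was above 1, namely TAC ZT23 replicate 1 (airway mean 1.42), TAC ZT03 replicate 3 (airway mean 1.11) and SHAM ZT11 replicate 3 (thymocyte mean 2.05). A SHAM ZT23 array stood just below this cutoff, with an airway mean of 0.96, and was kept when the 3 were left out. Bhlhe40 read 0.21 on TAC ZT23 replicate 1 and 0.27 on SHAM ZT11 replicate 3, each between the other replicates of its group. On TAC ZT03 replicate 3 it read 0.14, the lowest of that group.

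In TAC hearts Bhlhe40 was high from ZT23 through ZT07 and low from ZT11 through ZT19. At ZT03 the 3 TAC hearts had log2 values of 0.18, 0.21 and 0.14, and at ZT07 they had 0.35, 0.39 and 0.26. The values at ZT11 were -0.26, -0.12 and 0.011, those at ZT15 were -0.39, -0.31 and -0.11, and those at ZT19 were -0.26, -0.36 and -0.47. All 9 TAC hearts at these later times lay below all 6 of ZT03 and ZT07. At ZT23 the values were 0.21, -0.011 and 0.26, so 2 of the 3 hearts had come back to the height of ZT03 and replicate 2 lay within the ZT11 range.

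In SHAM hearts the same gene was high at ZT07 and ZT11. The 3 SHAM hearts had log2 values of 0.25, 0.29 and 0.26 at ZT07 and 0.19, 0.28 and 0.27 at ZT11. These 6 hearts lay above all 12 others of the SHAM group. The values were 0.060, -0.15 and -0.022 at ZT03 and 0.022, -0.28 and 0.025 at ZT15. At ZT19 they were -0.31, -0.23 and -0.32, and at ZT23 they were -0.068, -0.40 and -0.14. Replicate 2 was the lowest of its 3 at ZT03, ZT15 and ZT23 in SHAM.

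**Figure D1:**
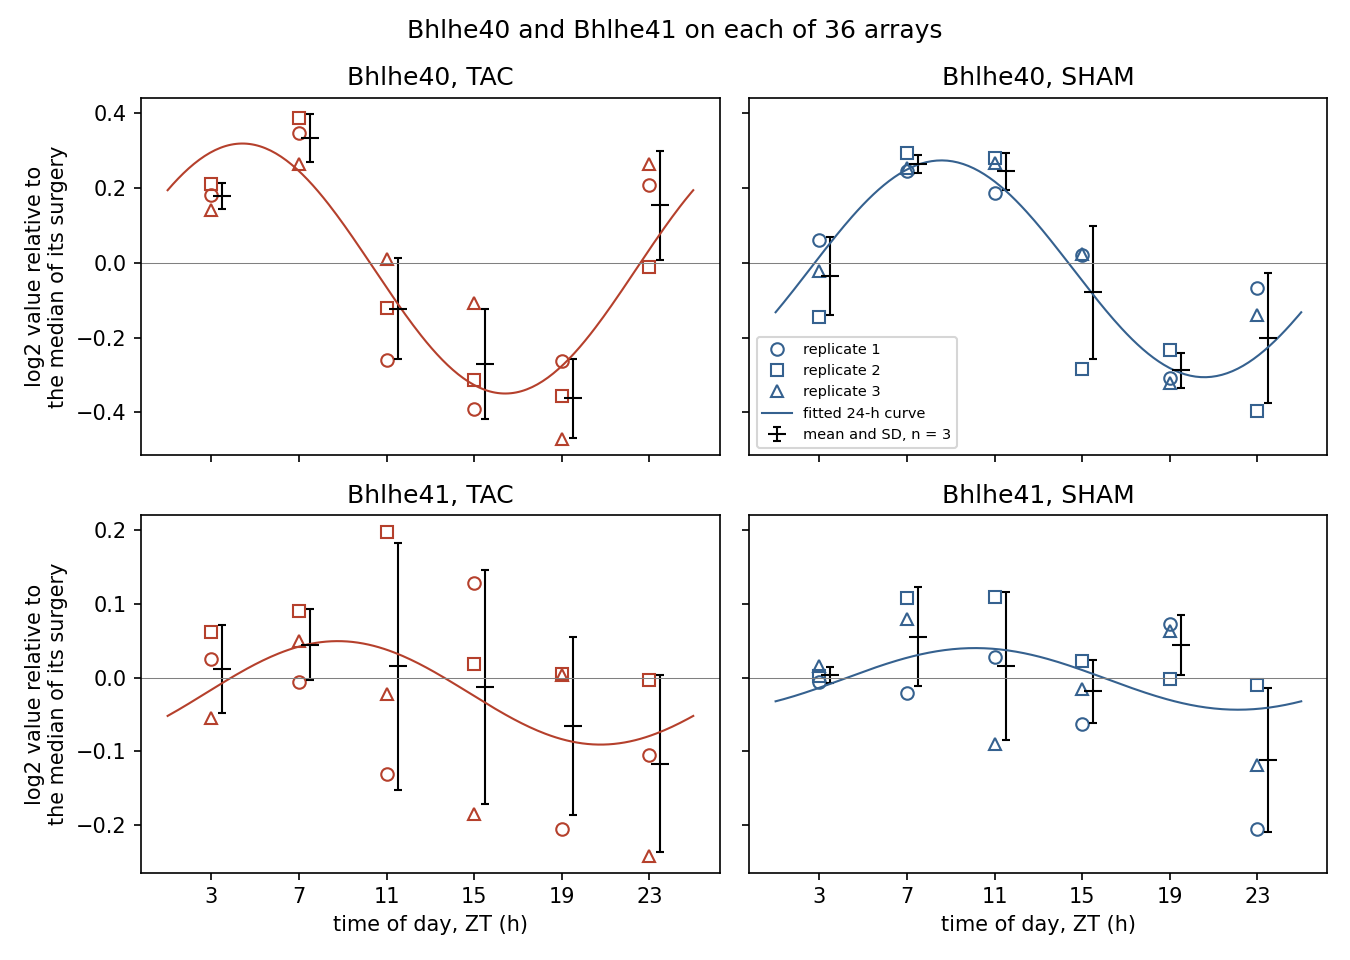
Log2 value relative to the median of its surgery (y axis; the scale differs between the rows) against time of day in ZT hours (x axis) for Bhlhe40 (upper panels) and Bhlhe41 (lower panels) in TAC hearts (left, red) and SHAM hearts (right, blue). Open symbols are single hearts by replicate number, black marks are means with SD of 3 hearts, and lines are fitted 24-h curves. Bhlhe40 stands high at ZT03 and ZT07 in TAC and at ZT07 and ZT11 in SHAM, while Bhlhe41 stays between -0.24 and 0.20.

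Bhlhe40 had its highest and lowest means at the same times in both surgeries, with different courses between them. The highest group mean was at ZT07 and the lowest at ZT19 in both, 0.33 ± 0.06 and -0.36 ± 0.10 in TAC, and 0.26 ± 0.03 and -0.29 ± 0.05 in SHAM (SD, n = 3). The distance between them was 0.70 in TAC, a fold of 1.62, and 0.55 in SHAM, a fold of 1.47. Ordered by their means, the TAC times ran ZT07, ZT03, ZT23, ZT11, ZT15 and ZT19, and the SHAM times ran ZT07, ZT11, ZT03, ZT15, ZT23 and ZT19. The ranges of neighbouring times in this order overlapped except between ZT07 and ZT03 in TAC and between ZT11 and ZT03 in SHAM, so the order of the other neighbours is not settled by 3 hearts each.

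The steps between successive times show where the courses part. Between ZT07 and ZT11, Bhlhe40 in TAC moved by -0.46 ± 0.09 (SE) and the ranges did not overlap, while in SHAM it moved by -0.020 ± 0.093 and they did. Between ZT19 and ZT23 the change was 0.52 ± 0.09 in TAC, again with no overlap, and 0.086 ± 0.093 in SHAM with overlap. Marker means moved at the same TAC step without overlap. The atrial mean was 0.28 at ZT19 and -0.91 at ZT23 in TAC, against 0.18 and -0.077 in SHAM. The wall stress mean was -0.22 at ZT19 and 0.51 at ZT23 in TAC, against -0.042 and -0.14 in SHAM, and the fibroblast and matrix mean was -0.18 and 0.42 in TAC, against 0.0069 and 0.11 in SHAM. At the TAC step from ZT07 to ZT11 the atrial mean moved from -0.21 to 0.12, also without overlap. The endothelial mean moved there from -0.032 to -0.16, again without overlap. In SHAM the atrial mean moved from -0.70 to -0.30 and the endothelial mean from -0.078 to -0.18, with overlap in both. The part of these marker means in either step of Bhlhe40 was not tested. Between ZT11 and ZT15 the change in Bhlhe40 was -0.15 ± 0.09 in TAC and -0.32 ± 0.09 in SHAM, where the ranges did not overlap. The first downward step without overlap was thus ZT07 to ZT11 in TAC and ZT11 to ZT15 in SHAM. The first upward step without overlap after the ZT19 low was ZT19 to ZT23 in TAC and ZT03 to ZT07 in SHAM, where the change was 0.30 ± 0.09. These steps belong to the courses on which the gene was chosen and were not tested.

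**Figure D2:**
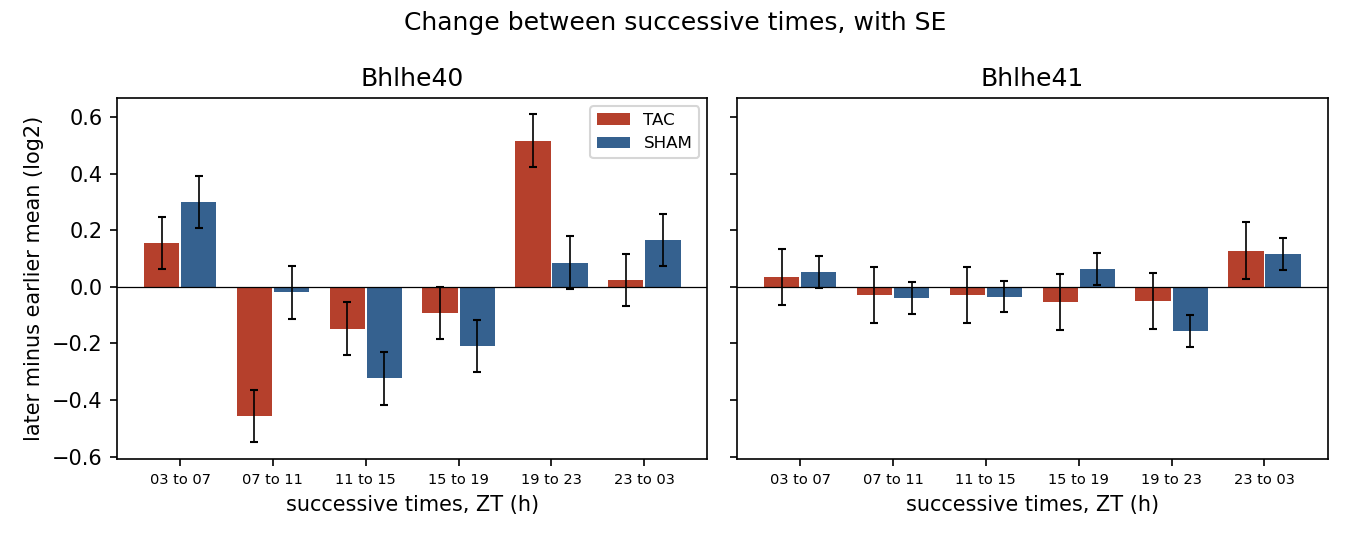
Change in mean log2 value from each time to the next (x axis, ZT hours; y axis, later minus earlier) for Bhlhe40 (left) and Bhlhe41 (right), with TAC bars in red left of SHAM bars in blue and error bars of 1 SE from the pooled within-group SD. For Bhlhe40 the large TAC bars are at ZT07 to ZT11 (-0.46) and ZT19 to ZT23 (0.52), where the SHAM bars are -0.020 and 0.086.

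A fitted 24-h curve put the peak of Bhlhe40 at ZT4.41 ± 0.46 in TAC and at ZT8.58 ± 0.53 in SHAM (SE from the fit over all 36 arrays), a TAC minus SHAM difference of -4.16 ± 0.71 h. The amplitude, from mean to peak, was 0.33 ± 0.04 in TAC and 0.29 ± 0.04 in SHAM. The curve took up 87.1% of the variation between the 6 group means in TAC and 97.3% in SHAM. In TAC another 11.9% was left over after a 24-h and a 12-h part, as an alternation from each time to the next. Of the 12393 genes, 4.35% passed the 24-h test in TAC, 5.58% in SHAM, and 0.0484% (6 genes, Bhlhe40 among them) had a rhythm that differed, at an adjusted p under 0.05 in limma. Since the pair was chosen with these outcomes known, nothing is read from them for Bhlhe40. With the 3 arrays high in thymocyte or airway markers left out, the peaks of Bhlhe40 lay -3.96 h apart, TAC minus SHAM.

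Bhlhe41, known as a target of DEC1 as well as of CLOCK and BMAL1, stayed close to its median all day. In TAC hearts its 18 log2 values ran from -0.24 to 0.20, and in SHAM hearts from -0.21 to 0.11. The highest mean was at ZT07, 0.045 ± 0.049 in TAC and 0.056 ± 0.068 in SHAM, and the lowest at ZT23, -0.12 ± 0.12 in TAC and -0.11 ± 0.10 in SHAM (SD, n = 3). The distance between them was 0.16 in TAC and 0.17 in SHAM, folds of 1.12 in both.

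At ZT23 the 3 TAC hearts had Bhlhe41 values of -0.11, -0.0031 and -0.24, and the 3 SHAM hearts had -0.21, -0.010 and -0.12. In SHAM these lay below all 3 hearts of ZT19 (0.073, -0.0023 and 0.063) and of ZT03 (-0.0065, 0.0023 and 0.015), though the nearest hearts, at -0.010 against -0.0023 and -0.0065, were close in both cases. In TAC the ranges of all successive times overlapped, as did those of all neighbours in the order of the means in both surgeries.

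The fitted 24-h amplitude of Bhlhe41 was 0.070 ± 0.032 in TAC and 0.042 ± 0.032 in SHAM (SE). With amplitudes this near their errors the peak times were poorly determined, ZT8.76 ± 1.72 in TAC and ZT10.1 ± 2.9 in SHAM. A relative value says nothing on how strongly the gene is expressed, so a flat course and a probe set near background cannot be told apart here.

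Neither gene had a 12-h component that passed the test. For Bhlhe40 the 12-h amplitude was 0.036 ± 0.042 in TAC (limma, adjusted p = 0.910 over all genes) and 0.046 ± 0.042 in SHAM (adjusted p = 0.999). For Bhlhe41 it was 0.031 ± 0.032 in TAC (adjusted p = 0.887) and 0.057 ± 0.032 in SHAM (adjusted p = 0.999). In SHAM hearts this component held 53.5% of the small variation between the Bhlhe41 means, more than the 28.9% of the 24-h curve. The test of a TAC and SHAM difference in the 12-h component was passed by neither gene (limma, adjusted p = 0.999962 for both). Over all 12393 genes, 1.03% passed the 12-h test in TAC, 0% in SHAM and 0% for the difference. At an unadjusted p under 0.05, 376 genes passed in SHAM and 629 for the difference, and with array weights 1 and 30 genes passed after adjustment.

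The spread between mice of the same group was compared next. For Bhlhe40 the pooled within-group SD was 0.114 in TAC and 0.114 in SHAM, a log2 ratio of -0.0041 (permutation p = 0.991, two-sided, 100000 relabellings of surgery within time, adjusted over both genes). Without all arrays of replicate 2 the log2 ratio was 1.76 (adjusted permutation p = 0.0183); the low SHAM values at ZT03, ZT15 and ZT23 are among the arrays then left out. For Bhlhe41 the SD was 0.121 in TAC and 0.068 in SHAM, a ratio of 1.78 that did not pass after adjustment (permutation p = 0.0449, adjusted 0.0898). Without the 3 arrays high in thymocyte or airway markers its log2 ratio was 1.13, against 0.83 with them, and the adjusted permutation p was 0.0372. In 42 of the 43 alternatives run for each gene the ratio did not pass, and the exception is the one given here.

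The 2 repressors showed little correlation with each other. Across all 36 arrays their correlation was r = 0.034, with r = -0.022 over the 18 TAC arrays and r = 0.13 over the 18 SHAM arrays. After subtraction of group means, hearts with more Bhlhe40 than their group tended to have less Bhlhe41 (r = -0.47, n = 36). The points share their arrays, and an array-wide component moves with both genes. The first principal component of the deviations from group means, which held 19.2% of their variance over all genes, correlated at r = 0.57 with the deviations of Bhlhe41 and at r = -0.30 with those of Bhlhe40. Its part in the opposite deviations was not tested.

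**Figure D3:**
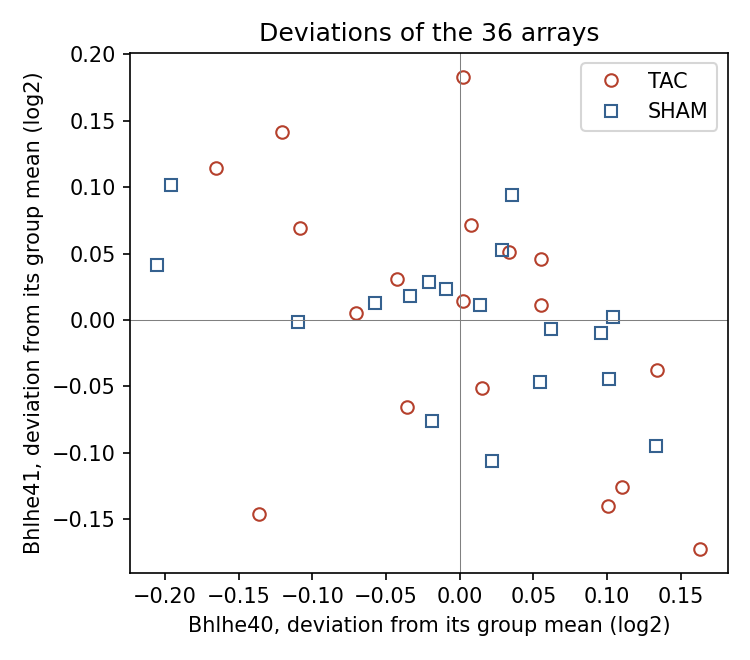
Deviation of each of the 36 hearts from its own group mean (log2) for Bhlhe40 (x axis) and Bhlhe41 (y axis), TAC hearts as red circles and SHAM hearts as blue squares. The cloud slopes downward (r = -0.47), with several hearts at the upper left and the lower right.

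Over the 36 arrays, Bhlhe40 was most like Parn (r = 0.80), which encodes a poly(A)-specific ribonuclease. Next came Nr1d1 (r = 0.76), the gene of the clock repressor REV-ERB alpha, then Mcl1, a survival factor of the BCL2 family (0.71), and the splicing factor gene Srsf5 (0.70). The genes most opposite to it were the clock repressor gene Cry1 (r = -0.72), St3gal5, the enzyme that makes the ganglioside GM3 (-0.72), and Nudt4, a phosphohydrolase gene (-0.72). The correlation with Parn was 0.78 over the TAC arrays and 0.85 over the SHAM arrays, and that with Nr1d1 was 0.76 in TAC and 0.77 in SHAM. With group means subtracted, Parn stood at r = 0.38, St3gal5 at -0.51, Nr1d1 and Mcl1 at 0.12, Cry1 at -0.032 and Nudt4 at -0.050, and Srsf5 had the opposite sign, -0.26. The points share their arrays, and no p is given since these genes are the extremes of 12393.

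None of the 8 genes nearest or most opposite to Bhlhe41 is on the clock lists. Its nearest were Brms1 (r = 0.76), Trim60 (0.72), Cldn9, a claudin of tight junctions (0.71), Olig3, a bHLH factor of the nervous system (0.70), and the neuronal gene Sez6l2 (0.70). The most opposite were Dnajc13, a chaperone-like protein of endosomes (-0.75), Fip1l1, a factor of mRNA polyadenylation (-0.75), and the translation initiation factor gene Eif3k (-0.73). With group means subtracted the correlations were 0.80 for Brms1, 0.74 for Trim60 and -0.82 for Eif3k. The likeness was thus also present among arrays of the same time and surgery. Within groups, Bhlhe41 also correlated at r = 0.57 with the first principal component over all genes. With the array median it correlated at r = 0.36 over the 36 arrays. The part of such array-wide variation in the likeness was not tested. The mean of 7 measured T cell and thymocyte markers lay between -0.10 and 0.15 on all TAC arrays. Of all marker lists it had the largest correlation with Bhlhe41 over the TAC arrays, r = 0.73. It stood at -0.23 over the SHAM arrays and, with the opposite sign to TAC, at -0.16 within groups. The other lists ran from -0.35 (macrophage) to 0.12 (atrial) in TAC and from -0.51 (macrophage) to 0.26 (cardiomyocyte) in SHAM. Within groups they ran from -0.36 (atrial) to 0.20 (erythroid). The part of these markers was not tested.

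Marker means of other cell types also varied over the arrays. Over the TAC arrays the mean of 5 atrial markers correlated with Bhlhe40 at r = -0.45 and that of 9 fibroblast and matrix markers at 0.39. Over the SHAM arrays the values for Bhlhe40 were -0.54 and -0.45, and the mean of 7 endothelial markers stood at -0.58, beside 0.0084 in TAC. The atrial mean ranged from -1.16 to 0.57 in TAC and from -1.07 to 0.26 in SHAM, and the fibroblast and matrix mean from -0.51 to 0.64 in TAC and from -0.20 to 0.19 in SHAM. The adipocyte mean ranged from -0.39 to 1.30 in TAC and from -0.49 to 1.43 in SHAM. At ZT15, when Bhlhe40 was low in TAC, all 3 TAC hearts were at 0.84 or above. At ZT19, when the Bhlhe40 mean was lowest in TAC, the adipocyte mean of the TAC hearts ran from -0.22 to 0.65. The means of the other lists correlated with Bhlhe40 in TAC and in SHAM as follows. Cardiomyocyte genes stood at -0.048 in TAC and -0.26 in SHAM, and wall stress genes of the fetal programme at 0.25 in TAC and 0.14 in SHAM. Smooth muscle genes stood at 0.23 in TAC and -0.46 in SHAM, and macrophage genes at 0.024 in TAC and -0.46 in SHAM. Airway genes stood at 0.30 in TAC and -0.15 in SHAM, adipocyte genes at -0.39 in TAC and -0.011 in SHAM, and erythroid genes at -0.45 in TAC and 0.017 in SHAM. T cell and thymocyte genes stood at -0.063 in TAC and 0.33 in SHAM. Within groups the correlation with Bhlhe40 was 0.34 for the macrophage, 0.33 for the atrial, 0.25 for the fibroblast and matrix and 0.17 for the endothelial mean. It was 0.22 for the wall stress, 0.14 for the adipocyte, 0.12 for the smooth muscle and 0.079 for the airway mean. For the T cell and thymocyte mean it was 0.025, for the cardiomyocyte mean -0.12 and for the erythroid mean -0.18. Their part in the course of Bhlhe40 was not tested, and in whole ventricle fewer cells of a type and less RNA per cell cannot be told apart.

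Genes driven through the E-box kept a daily rhythm in both surgeries. Of the 14 listed, 12 were measured, and 12 of 12 passed in TAC and in SHAM (limma, adjusted p under 0.05), where 4.35% of all genes passed in TAC and 5.58% in SHAM, with a median amplitude of 0.30 in TAC and 0.39 in SHAM, beside 0.047 in TAC and 0.048 in SHAM over all genes. Of the activators, Arntl, Clock and Npas2 passed in both surgeries and Arntl2 in neither (adjusted p = 0.718 in TAC and 0.868 in SHAM). These lists were drawn up with earlier results of the arrays known, so their counts describe the genes and are not independent evidence.

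Set among the 12 measured E-box driven genes, Bhlhe40 stood at a different place in each surgery. The activators, such as Npas2 with a TAC peak at ZT0.92, were not ranked. In TAC Bhlhe40 had the earliest fitted peak of these 13 genes, ZT4.41 ± 0.46, 1.25 h before that of Nr1d1 at ZT5.67 ± 0.27. Both genes had their highest TAC group mean at ZT07. The TAC peak of Bhlhe40 came as late as ZT4.89 under other settings and ZT4.98 with arrays left out, and the order was not checked again there. In SHAM Bhlhe40 came second at ZT8.58 ± 0.53, 1.93 h after Nr1d1 at ZT6.65 ± 0.27 (SE). The SHAM peak of Per1, at ZT9.22 ± 0.52, overlapped that of Bhlhe40 within these errors, so second place is not settled. No test of the ranks was made. Per1, Dbp and Nr1d2 followed at ZT8.92, ZT8.78 and ZT9.07 in TAC and at ZT9.22, ZT10.3 and ZT10.8 in SHAM. The TAC minus SHAM differences in peak time of the 12 other genes had a median of -1.16 h and ran from -3.03 ± 0.84 h for Wee1, a cell cycle kinase gene under clock control, to 1.65 ± 1.01 h for Cry2. Tef, a bZIP factor gene whose E-box is printed above, stood at -1.80 ± 0.59 h and Cry1 at -0.83 ± 0.69 h. For 0 of these 12 genes did the difference in rhythm itself pass in limma, the smallest adjusted p being 0.560 for Wee1. Of the 248 genes that passed in both surgeries, 6 (Bhlhe40 among them) had a difference below -4 h, and the quartiles were -1.66 and 0.39 h.

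**Figure D4:**
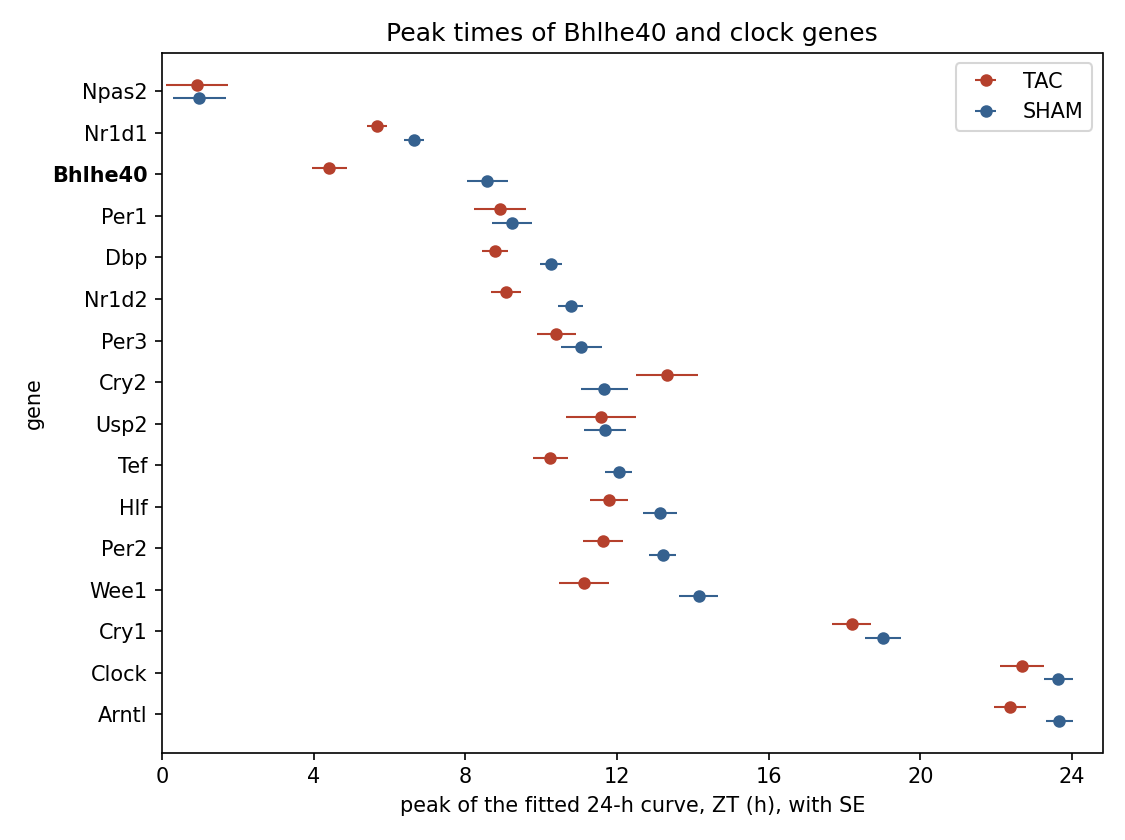
Peak time of the fitted 24-h curve in ZT hours (x axis) with SE for Bhlhe40 (bold) and the 15 clock genes that passed the 24-h test in both surgeries (y axis, ordered by the SHAM peak), TAC in red above SHAM in blue. The TAC and SHAM points of Bhlhe40 are 4.16 h apart, and its TAC point lies left of that of Nr1d1 while its SHAM point lies right of it.

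The amplitude of Bhlhe40 was 1.15 times as large in TAC as in SHAM, while the median ratio over the 12 E-box driven genes was 0.803. Nr1d1, with amplitudes of 0.98 in TAC and 0.97 in SHAM, had a ratio of 1.01, and the deubiquitinase gene Usp2 was at 0.589. No test of these ratios was made.

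Of 10 HES and HEY genes, the other branch of the Orange family, 9 were measured, and 2 passed the 24-h test in TAC and 1 in SHAM, beside 4.35% of all genes in TAC and 5.58% in SHAM. Heyl, a vascular Notch target, had an amplitude of 0.15 in TAC (adjusted p = 0.00573 in limma) and 0.11 in SHAM (adjusted p = 0.0398). Hey1, another Notch target, had 0.11 in TAC (adjusted p = 0.0256 in limma) and 0.039 in SHAM (adjusted p = 0.582). Hes7 and Hes6 had amplitudes of 0.0062 and 0.018 in TAC and 0.077 and 0.049 in SHAM and did not pass. The median amplitude of the family was 0.033 in TAC and 0.039 in SHAM, beside those of all genes given above.

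Targets of the hypoxia-inducible factors, the oxygen-sensitive activators, were set beside Bhlhe40. Of 20 listed targets, 17 were measured, and 3 passed in TAC and 5 in SHAM, against 4.35% of all genes in TAC and 5.58% in SHAM. Adm, the gene of the vasodilator adrenomedullin, peaked at ZT17.0 in TAC and ZT18.1 in SHAM with amplitudes of 0.33 in TAC and 0.46 in SHAM. P4ha2, a collagen prolyl hydroxylase gene, peaked at ZT18.0 in TAC and ZT19.0 in SHAM. Egln3, an oxygen sensor of the pathway, had amplitudes of 0.24 in TAC (adjusted p = 0.0509 in limma) and 0.64 in SHAM (adjusted p = 4.41e-08), with peaks at ZT21.7 in TAC and ZT21.8 in SHAM. P4ha1, a sister gene of P4ha2, peaked at ZT18.2 in TAC (adjusted p = 0.141 in limma) and ZT20.4 in SHAM (adjusted p = 4.69e-04). These 4 had the smallest p of the list. Vegfa also passed in TAC (adjusted p = 0.00225 in limma) and in SHAM (adjusted p = 0.00726), with peaks at ZT20.9 in TAC and ZT21.8 in SHAM. Fitted peaks elsewhere were those of targets that passed in neither surgery, such as Car9 at ZT4.32 in TAC and ZT4.89 in SHAM. Vegfa and Car9, a carbonic anhydrase gene, were picked after their values were seen.

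Immediate early genes, like Bhlhe40, answer to serum and cyclic AMP. All 17 listed were measured, and 2 passed in TAC and 2 in SHAM, with 4.35% of all genes passing in TAC and 5.58% in SHAM. Atf3, a stress-induced factor gene, had an amplitude of 0.39 in TAC (adjusted p = 0.0123 in limma) and 0.078 in SHAM (adjusted p = 0.803), and Junb, a subunit of AP-1, had 0.23 in TAC (adjusted p = 0.0167) and 0.11 in SHAM (adjusted p = 0.365). Ier3 and the nuclear receptor gene Nr4a1 had 0.24 and 0.22 in TAC and 0.56 and 0.52 in SHAM, where both passed (adjusted p = 0.00161 and 0.00440 in limma). The differences in rhythm between the surgeries did not pass for these 4 genes. Their fitted peaks in the surgery where each passed were ZT19.6 ± 0.8 in TAC for Atf3, ZT1.24 ± 0.85 in TAC for Junb, ZT15.3 ± 0.7 in SHAM for Ier3 and ZT6.28 ± 0.77 in SHAM for Nr4a1 (SE).

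Of 11 cofactors and partners reported for the DEC proteins, among them RXR and histone deacetylase genes and the ID inhibitors of bHLH factors, 10 were measured and 0 passed in either surgery in limma. With 4.35% of all genes passing in TAC and 5.58% in SHAM, a count of 0 in 10 is near the background. The 4 with the smallest p were Myod1, Id3, Id1 and Id2. Their amplitudes ranged from 0.060 to 0.11 in TAC (adjusted p from 0.0709 to 0.495) and from 0.041 to 0.16 in SHAM (adjusted p from 0.161 to 0.627). The list had a median amplitude of 0.054 in TAC and 0.076 in SHAM.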

How the data were processed

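Affymetrix arrays of the left ventricle were deposited as a table of 22690 probe sets by 36 arrays. The deposited log2 values, so taken here, have a median of 0 for each probe set within each surgery; how the authors summarised and normalized the arrays, and the log base, the sources used here leave unstated. Per the labels' protocols, RNA was extracted with Trizol and biotinylated cRNA was made by the standard Affymetrix protocol. Groups came from the sample titles. Probe sets with 1 symbol in the platform annotation (20380, with 13 controls left out) were averaged to 12393 genes; 691 probe sets had several symbols and 1606 were not listed.

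For every gene a mean with a 24-h cosine and sine per surgery was fitted over all 36 arrays in limma 3.58.1 (R 4.3.3), with empirical Bayes F-tests and Benjamini-Hochberg adjustment over all genes at 0.05. A second model added 12-h terms. Both surgeries shared 1 estimate of the spread. SEs of peak times came from the delta method. The within-group SD was compared by 100000 relabellings. The fits were checked on data with known rhythms. The number of arrays limits the precision.

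The members, lists and markers were chosen with earlier results of these data known. Named genes were the members, the 5 most and 3 least correlated with each, the clock genes, and up to 4 of every other list with the smallest 24-h p; clone-like symbols were skipped, and 1 gene that the rule names is not reported here. Alternatives were quantile normalization, median centring, array weights, robust empirical Bayes, the replicate block, separate surgeries, another choice of probe set, and arrays left out. Figures were drawn with matplotlib 3.10.9.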

Additional observations from a re-analysis of the deposited data

How the results depend on the processing

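The 24-h amplitude of Bhlhe40 ran from 0.31 to 0.38 in TAC and from 0.26 to 0.35 in SHAM over the alternatives. Each move was smaller than the pooled within-group SD, 0.114 in both surgeries. Peak times and their difference moved by less than this SD over the amplitude, turned into hours. Both margins are wide, so only a large change could have exceeded them. Robust fitting, the replicate block, separate fits and another choice of probe set left amplitudes and peak times unchanged by construction and do not bear on stability. For Bhlhe41 the same measure could not show a fall in amplitude. Its 24-h amplitudes, 0.070 in TAC and 0.042 in SHAM, were below the within-group SDs of 0.121 in TAC and 0.068 in SHAM. Without SHAM ZT23 replicate 1 its 24-h amplitude in SHAM was 0.021, against 0.042 with it. The TAC minus SHAM difference in peak time of Bhlhe40 ran from -4.30 to -3.54 h under other settings and from -4.58 to -3.81 h with arrays left out. The 12-h component of either gene passed under none of them, with 0.530 the smallest adjusted p in limma. With arrays left out, the log2 SD ratio of TAC over SHAM ran from -0.81 to 1.76 for Bhlhe40, the upper value being without replicate 2, and from 0.65 to 1.20 for Bhlhe41, which stood at 1.13 without the arrays high in thymocyte or airway markers. Array weights, robust fitting, the block and separate fits do not enter that ratio, and separate fits give no test of a difference.

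Counts over all genes depended far more on the setting, and the cause was not tested. For the 24-h rhythm in TAC the count was 142 with separate fits, 691 without the arrays high in thymocyte or airway markers and 116 to 618 with single arrays or 1 replicate number left out, and in SHAM it was 1393 after quantile normalization, 1976 with array weights, 1166 with separate fits and 119 to 777 with arrays left out. For the difference in rhythm it was 12, 13, 3 and 2 with quantile normalization, array weights, robust fitting and the replicate block, and 0 to 8 with arrays left out. For the 12-h component in TAC it was 21, 377 and 1 with quantile normalization, array weights and separate fits, and 0 to 396 with arrays left out (17 without TAC ZT23 replicate 1, 396 without TAC ZT11 replicate 1). In SHAM it was 1 with array weights and 1 without the arrays high in thymocyte or airway markers, and for the difference 30 with array weights and 0 to 67 with arrays left out. The replicate block changed no other call or count by over 1.5 times. Same-numbered TAC and SHAM arrays of 1 time did not deviate together (r above 0.1 in 4 of 18 pairs, median -0.049), so the numbers were not taken as pairs.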
